A study of Rattus norvegicus with 4 samples.

Results

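Interferon-stimulated, RNA-sensing, chemokine and acute-phase genes were followed in cultured rat cortical neurons carrying a PHF6 shRNA or a control shRNA. The set was named gene by gene, with no rule on measured values but with earlier results of these data known, and held 37 genes. A probe set annotated to that gene alone was found for 36 of them, of 17245 genes measured this way in all, and Eif2ak2 was not analysed here. The neurons came from wild-type Sprague Dawley rats at embryonic day 18, and total RNA was collected 5 days after infection with pLL3.7 lentivirus. The control group (2 arrays) received virus with a control shRNA. The PHF6 group (2 arrays) received virus with PHF6shRNA-2, and its labels give knockdown as the genotype but KO in the source name. PHF6 is a nuclear zinc-finger protein encoded on the X chromosome. All 4 cultures were infected with a virus that carries a hairpin, and uninfected neurons were not analysed here. Whether a response to the virus or to a hairpin as such was equal in both groups was not tested. Both PHF6 arrays carry the same hairpin, so loss of PHF6 and other effects of that hairpin cannot be told apart. The arrays are called biological duplicates, numbered 1 and 2 in each group, and the labels do not say whether these are separate animals or cultures, and the p-values reflect only how far these arrays scatter.

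Cells that detect double-stranded RNA through sensors such as MDA5 or TLR3 make type I interferon, which acts through the JAK kinases and a complex that contains STAT2 and IRF9 on genes whose promoters hold an interferon-stimulated response element. Those genes encode antiviral effectors and the peptide-loading machinery of MHC class I. Inflammatory cytokines act instead mainly through NF-kB and, for the IL-6 family, STAT3, and induce chemokines and acute-phase proteins. In brain, astrocytes and microglia are well-known sources of the chemokine CCL2 and the acute-phase protein lipocalin-2. Short hairpins and viral vectors are known to be able to trigger the interferon branch in some settings.

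Promoter sequences are shown for 5 members to set the 2 branches beside the values: Lcn2 and B2m, which differed widely between duplicates, Tap1, which was higher in both PHF6 shRNA arrays, and Cxcl10 and Ifit3, which stayed below background. Each is the 300-base RefSeq window of the GRCr8 assembly, 250 bases before the gene's start and 50 after, 5′ to 3′ on the strand of the gene. Capitals mark matches, on either strand, to the core of the interferon-stimulated response element (GAAA, any 2 bases, GAAA) or of the NF-kB site (GGGA, any 2 bases, TTCC). The third motif searched was the core of the gamma-activated site, which STAT3 can bind (TTC, any 3 bases, GAA), which has no match in these 5 windows. The windows are Lcn2 at chr3:36081731-36082030 (minus strand), B2m at chr3:129549080-129549379 (plus), Tap1 at chr20:4668494-4668793 (minus), Cxcl10 at chr14:15988816-15989115 (plus) and Ifit3 at chr1:241527076-241527375 (plus).
Lcn2: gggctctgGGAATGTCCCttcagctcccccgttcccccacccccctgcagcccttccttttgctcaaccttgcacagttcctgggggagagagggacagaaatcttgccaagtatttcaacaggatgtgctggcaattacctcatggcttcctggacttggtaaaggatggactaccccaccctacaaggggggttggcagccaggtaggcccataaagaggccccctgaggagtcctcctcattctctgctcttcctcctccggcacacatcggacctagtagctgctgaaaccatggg
B2m: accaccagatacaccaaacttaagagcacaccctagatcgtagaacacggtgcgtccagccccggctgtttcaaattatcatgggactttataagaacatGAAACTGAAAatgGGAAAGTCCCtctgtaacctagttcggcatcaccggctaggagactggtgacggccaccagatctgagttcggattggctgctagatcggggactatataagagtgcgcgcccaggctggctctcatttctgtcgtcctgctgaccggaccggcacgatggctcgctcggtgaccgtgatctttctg
Tap1: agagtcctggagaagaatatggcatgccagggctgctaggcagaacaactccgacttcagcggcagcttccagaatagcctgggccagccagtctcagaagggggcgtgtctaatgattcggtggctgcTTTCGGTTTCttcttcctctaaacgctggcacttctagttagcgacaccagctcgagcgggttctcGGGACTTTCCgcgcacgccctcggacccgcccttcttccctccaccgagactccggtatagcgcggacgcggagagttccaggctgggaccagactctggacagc
Cxcl10: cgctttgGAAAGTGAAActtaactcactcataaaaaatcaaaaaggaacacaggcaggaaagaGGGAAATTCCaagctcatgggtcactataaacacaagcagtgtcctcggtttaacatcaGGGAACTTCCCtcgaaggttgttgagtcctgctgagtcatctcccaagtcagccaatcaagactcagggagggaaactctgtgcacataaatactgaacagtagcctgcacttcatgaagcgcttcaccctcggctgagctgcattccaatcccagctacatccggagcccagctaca
Ifit3: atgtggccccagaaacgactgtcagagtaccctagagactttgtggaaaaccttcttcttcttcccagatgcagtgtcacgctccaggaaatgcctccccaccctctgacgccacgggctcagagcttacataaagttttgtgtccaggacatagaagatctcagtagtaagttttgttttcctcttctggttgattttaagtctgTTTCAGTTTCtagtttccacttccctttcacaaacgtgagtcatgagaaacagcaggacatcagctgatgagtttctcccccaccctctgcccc

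A RefSeq window was found for 30 of the 36 members, and Ccl2 was not among them. The interferon-stimulated response element core was present in 10 of the 30 (33.3%), against 3.92% of all 33469 windows of that length. Those 10 were B2m, Bst2, Cxcl10, Ifih1, Ifit3, Irf7, Isg20, Psmb8, Tap1 and Tap2. The NF-kB core was present in 10 (33.3%, against 1.30% of all windows), namely B2m, Ccl7, Cxcl1, Cxcl10, Il6, Irf3, Lcn2, Nfkb1, Nfkbia and Tap1. The gamma-activated core was present in 6 (20.0%, against 8.87%), and in Bst2 it overlapped the interferon element. The 3 genes B2m, Tap1 and Cxcl10 hold both the interferon and the NF-kB core. Tap1 and Psmb9 lie head to head, and their windows share 44 bases. A match is a description of these letters and not evidence of binding.

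The background level of an array was set from 1272 genes for odorant and vomeronasal receptors, as their 95th percentile, and lay at 43.7 and 34.7 intensity units in control duplicates 1 and 2 and at 42.6 and 36.3 in PHF6 shRNA duplicates 1 and 2. Array medians lay between 5.35 and 5.38 log2 units. The labelled cell type was checked by 10 neuronal markers, among them Tubb3, Map2, Snap25 and Slc17a7, and all 10 were above background on all 4 arrays. Phf6 itself read 32.8, 34.3, 34.4 and 31.3 intensity units (control duplicates 1 and 2, then PHF6 shRNA duplicates 1 and 2), below background on every array, and the group labels cannot be checked with it.

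**Figure D1:**
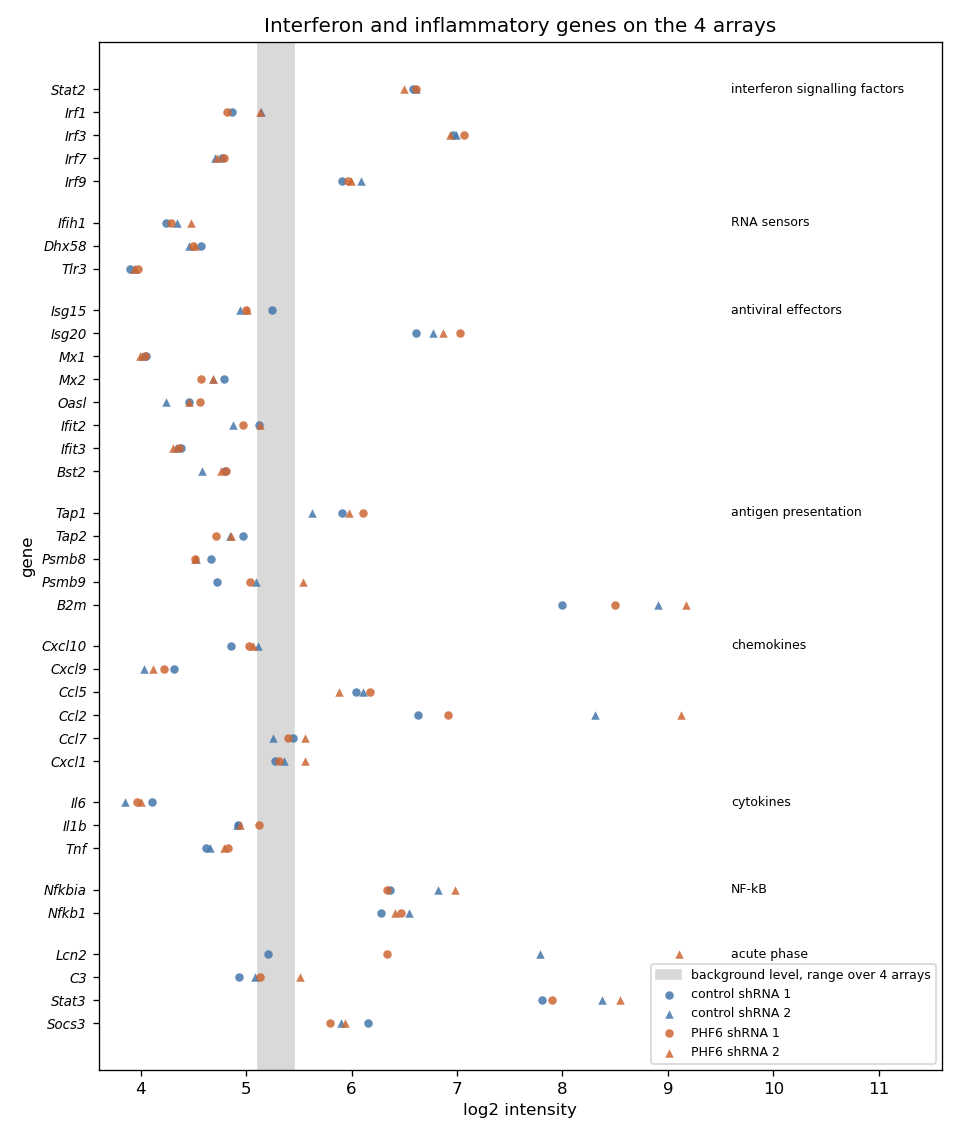
Log2 intensity (x axis) of the 36 measured members, grouped by role, on each of the 4 arrays. Circles are duplicates numbered 1, triangles those numbered 2, and the grey band spans the background levels of the 4 arrays. Most antiviral effectors and sensors sit left of or within the band, and Lcn2, Ccl2 and B2m show triangles far to the right of circles in both groups.

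Most of the interferon-stimulated genes gave no signal above background in either group. Of the 36 members 12 were above background on all 4 arrays, 6 on 1 to 3 arrays and 18 on none. Over all genes 53.1% were above on all 4 arrays and 37.3% on none, against 12 and 18 of the 36 members. With the 90th percentile of the receptor genes as background the counts were 15 on all arrays and 14 on none, and with the 99th they were 6 and 25. A gene at background has no measurable fold, and RMA compresses such differences, so the values of those 18 genes, which ran from 3.85 to 5.25 log2 units, give no measure of small changes.

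In the fit without a block on the duplicate number, none of the 36 members differed between PHF6 shRNA and control shRNA past the adjusted threshold. That was so for all 17245 genes (0.0% called, limma, Benjamini-Hochberg adjusted p under 0.05). At an unadjusted p under 0.05 none of the members passed in the limma fit, while 10.8% of all genes did, and Isg20 passed that level under 2 of the 3 other scalings. The smallest adjusted p among the members was 0.48. The point estimates were higher in PHF6 shRNA for 23 members and lower for 13, with a median of 0.05 log2 units, against 47.7% higher and a median of -0.01 over all genes. The groups' arrays did not overlap in 7 members, against 37.8% of all genes. In 5 of them, Isg20, Tap1, Il1b, Tnf and C3, both PHF6 shRNA arrays were above both controls (16.0% of all genes). In the other 2, Mx2 and Psmb8, both were below (21.7% of all genes). Isg20 and Tap1 were the only members of these 7 above background on all 4 arrays.

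**Figure D2:**
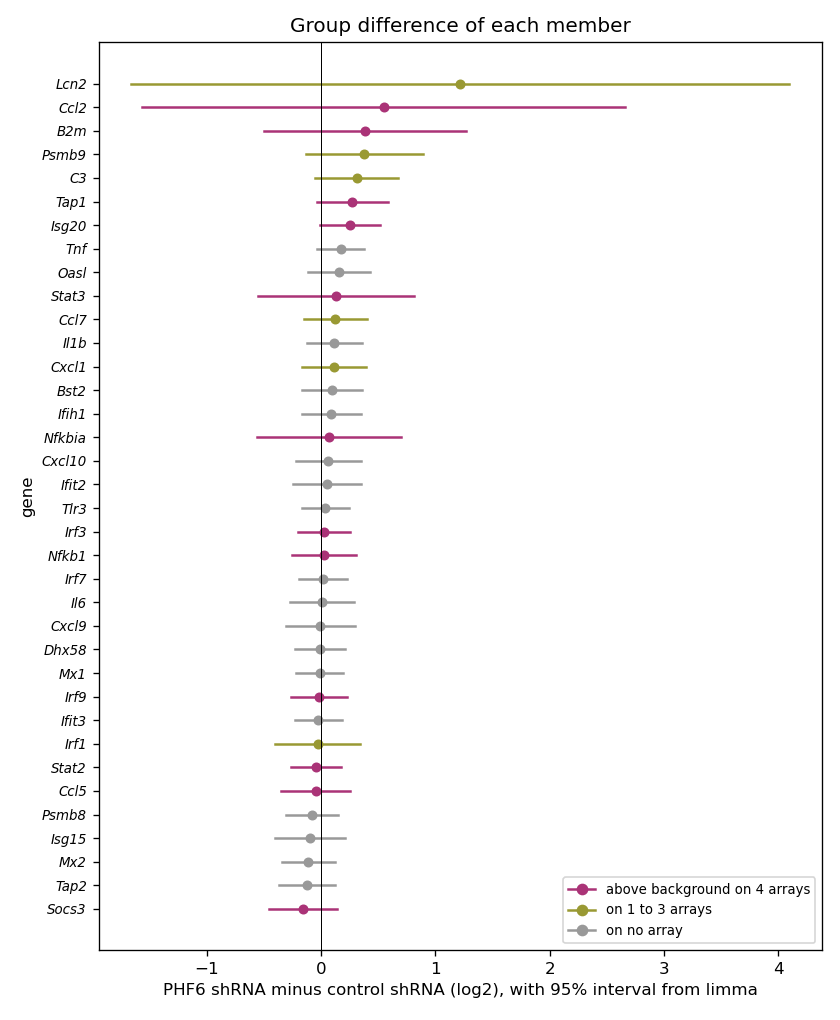
Difference between PHF6 shRNA and control shRNA in log2 units (x axis) for each of the 36 members, with the 95% interval from limma as a bar. Colour gives the number of arrays above background. The interval of every member includes 0, and those of Lcn2 and Ccl2 are the widest.

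RNA sensors were at background throughout. Ifih1, which encodes the double-stranded RNA sensor MDA5, read 18.8 and 20.3 intensity units with control shRNA and 19.5 and 22.3 with PHF6 shRNA. Tlr3, an endosomal receptor for double-stranded RNA, read 14.9 and 15.4 against 15.7 and 15.4. Dhx58, which encodes the RIG-I-like protein LGP2, read 23.8 and 22.0 against 22.6 and 22.9. All 12 of these values lay below the level of their array.

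The signalling factors of the interferon pathway were present at like levels in both groups. Stat2, a transcription factor of the type I response, read 95.6 and 97.8 intensity units with control shRNA and 97.7 and 90.1 with PHF6 shRNA, a difference of -0.04 ± 0.09 log2 units (SE). Irf9, the DNA-binding partner of STAT2, read 60.0 and 68.1 against 62.3 and 63.9, a difference of -0.02 ± 0.10. Irf3, the factor that sensors activate to start interferon transcription, read 124 and 127 against 134 and 123, a difference of 0.03 ± 0.09. For these 3 genes the groups overlapped, and the 95% intervals of the difference ran from -0.26 to 0.18 for Stat2, from -0.26 to 0.23 for Irf9 and from -0.20 to 0.25 for Irf3. The signs of Stat2 and Irf9 turn under cyclic loess scaling. Irf7, an interferon-induced factor that amplifies the response, stayed between 26.1 and 27.7 intensity units, below background on all arrays. Irf1, a factor induced by interferon gamma, exceeded it on control duplicate 2 alone, with 4.87 and 5.14 log2 units in control duplicates 1 and 2 and 4.82 and 5.13 in those with PHF6 shRNA.

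Of the 8 antiviral effectors, 7 were below background on every array. Isg15, the ubiquitin-like modifier that is among the most strongly interferon-induced genes, read 37.9 and 30.7 intensity units with control shRNA and 31.9 and 32.1 with PHF6 shRNA. Mx1, a dynamin-like GTPase that blocks viral replication, read 16.5 and 16.1 against 16.5 and 15.9. Ifit3, whose promoter window above holds the interferon element, read 20.9 and 20.2 against 20.6 and 19.8. These values give no level of the transcripts beyond lying under the background of their arrays. Mx2, Oasl, Ifit2 and Bst2, which encode a second Mx GTPase, an oligoadenylate synthetase-like protein, an IFIT family RNA-binding protein and the tethering factor tetherin, lay between 18.9 and 35.1 units. Isg20, an exonuclease that degrades RNA, was the exception. It read 97.9 and 109.6 with control shRNA and 130.7 and 116.9 with PHF6 shRNA. Both PHF6 shRNA arrays were above both control arrays, by 0.25 ± 0.11 log2 units or 1.19-fold, and the gene did not pass (limma adjusted p = 0.48, unadjusted 0.056). Leaving out each array in turn gave 0.17 to 0.34. Its difference was 0.30 after a further quantile normalization and 0.32 under cyclic loess.

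Antigen presentation genes differed in whether they were measurable. Tap1, a subunit of the transporter that carries peptides to MHC class I, read 60.3 and 49.5 intensity units with control shRNA and 69.2 and 62.9 with PHF6 shRNA. The groups did not overlap, and the difference was 0.27 ± 0.12 log2 units, or 1.21-fold (limma adjusted p = 0.54). Leaving out single arrays moved it between 0.13, with control duplicate 2 left out, and 0.42, with control duplicate 1 left out. Psmb9, an immunoproteasome subunit whose promoter window overlaps that of Tap1, read 26.4 and 34.1 against 32.8 and 46.4, and only the highest of these, PHF6 shRNA duplicate 2, was above background. Its difference was 0.38 ± 0.20, with overlap between the groups (limma adjusted p = 0.63). Leaving out each array in turn gave 0.13 (without PHF6 shRNA duplicate 2) to 0.63 (without PHF6 shRNA duplicate 1). Tap2, the other transporter subunit, and Psmb8, a further immunoproteasome subunit, were below background on all arrays, at 26.3 to 31.4 and 22.9 to 25.5 units. B2m, the light chain of MHC class I, read 256 and 480 with control shRNA and 362 and 578 with PHF6 shRNA. Within each group the array numbered 2 was the higher, and the difference of 0.38 ± 0.35 was smaller than the gap between duplicates (limma adjusted p = 0.86).

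The chemokine Ccl2, which recruits monocytes, differed more between duplicates than between the shRNA groups. It read 99.2 and 317 intensity units in control duplicates 1 and 2, and 121 and 557 in PHF6 shRNA duplicates 1 and 2. The arrays numbered 2 were 3.19-fold (control) and 4.62-fold (PHF6 shRNA) above those numbered 1. The group difference was 0.55 ± 0.84 log2 units (limma adjusted p = 0.95), and its sign turned when control duplicate 1 or PHF6 shRNA duplicate 2 was left out, over a range from -0.56 to 1.65. Ccl7, the neighbouring monocyte chemokine gene, read 43.5 and 38.3 against 42.2 and 47.1 units. It was below background on both arrays numbered 1, so its gap is not exact, and whether it followed Ccl2 cannot be told. Cxcl1, a neutrophil chemokine, read 38.7 and 41.1 against 39.6 and 47.0, above background on both arrays numbered 2. The interferon-induced chemokines Cxcl10 and Cxcl9, ligands of the receptor CXCR3, were below background on all arrays, Cxcl10 at 28.9 and 34.6 against 32.6 and 33.6. In control duplicate 2 Cxcl10 lay barely under the level of 34.7. It exceeded the 90th percentile of the receptor genes on both arrays numbered 2 (29.6 in control and 30.6 in PHF6 shRNA). Ccl5, a T cell chemokine, read 66.1 and 68.8 against 72.2 and 58.9, with overlap.

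Inflammatory cytokine genes themselves were below background on all 4 arrays. Il6 read 17.2 and 14.4 intensity units with control shRNA and 15.6 and 16.0 with PHF6 shRNA. Il1b, the precursor of interleukin-1 beta, read 30.3 and 30.1 against 34.8 and 30.8. Tnf read 24.5 and 25.3 against 28.4 and 27.7. In Il1b and Tnf both PHF6 shRNA values were above both control values, but under the background of their arrays. The NF-kB subunit gene Nfkb1 was above background, with overlapping groups, at 77.8 and 93.2 against 88.3 and 85.2 units. Nfkbia, the NF-kB inhibitor that NF-kB itself induces, read 82.4 and 113 against 81.0 and 126, so both arrays numbered 2 were above both arrays numbered 1. Its group difference was 0.07 ± 0.25 log2 units.

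Lcn2, which encodes the iron-siderophore-binding acute-phase protein lipocalin-2, had both the highest group difference of the members and the widest gap between duplicates. It read 37.0 and 221 intensity units in control duplicates 1 and 2 and 80.5 and 549 in PHF6 shRNA duplicates 1 and 2, and control duplicate 1 was below background. The arrays numbered 2 were 5.97-fold (control) and 6.82-fold (PHF6 shRNA) above those numbered 1, so the first of these folds is not exact. Among all 17245 genes, Lcn2 ranked 1 by the smaller of its 2 gaps where both ran the same way, and Ccl2 ranked 3. Between arrays of the same number, PHF6 shRNA was above control by 1.12 log2 units in the duplicates numbered 1 and by 1.31 in those numbered 2. The first of these, and with it the group difference, is not exact either, since control duplicate 1 was below background. The group difference was 1.22 ± 1.15 log2 units (limma adjusted p = 0.87), with a 95% interval from -1.66 to 4.09. That fit has no block on the duplicate number, so the interval counts the gap between duplicates as scatter, as for Ccl2, B2m and Psmb9. The calls of these 4 genes depend on that choice, as given in the closing section. Leaving out each array in turn gave values from -0.17 to 2.60, negative when control duplicate 1 or PHF6 shRNA duplicate 2 was the array left out.

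The other acute-phase members had narrower gaps. Stat3, the transcription factor of IL-6 family signalling, read 224 and 333 intensity units with control shRNA and 239 and 373 with PHF6 shRNA. Both arrays numbered 2 were above both numbered 1, by 0.57 and 0.64 log2 units, while the group difference was 0.13 ± 0.27. Socs3, the feedback inhibitor that STAT3 induces, read 71.3 and 59.8 against 55.7 and 61.4. It did not share the gap of Stat3, and its group difference was -0.16 ± 0.12. C3, the central complement component, read 30.6 and 33.9 against 35.1 and 45.5, and exceeded background on PHF6 shRNA duplicate 2 alone. Its difference was 0.31 ± 0.15 log2 units without overlap (limma adjusted p = 0.55), and it ranged from 0.13, with PHF6 shRNA duplicate 2 left out, to 0.50, with PHF6 shRNA duplicate 1 left out. With 3 of its 4 values below background, this difference is not exact.

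**Figure D3:**
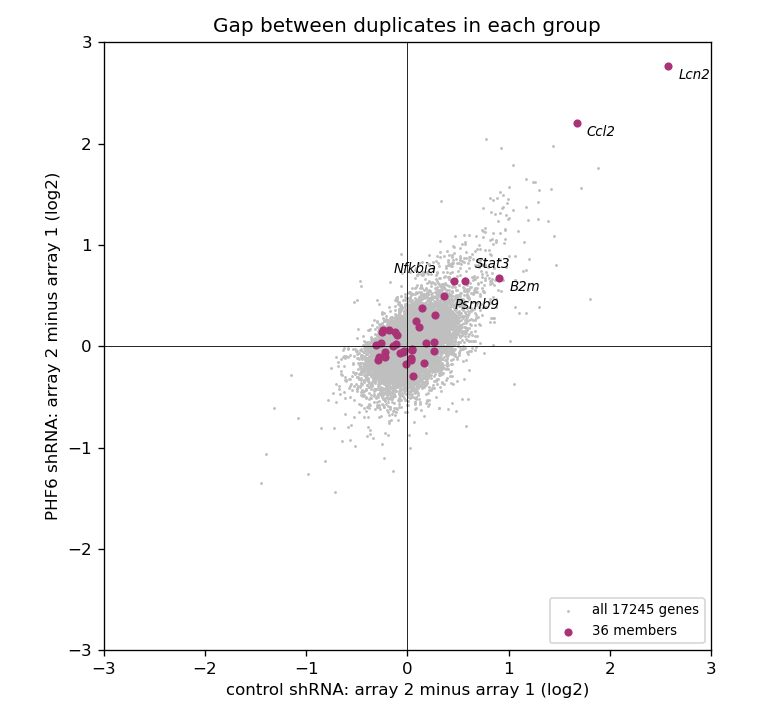
Gap between duplicates, array 2 minus array 1 in log2 units, in the control shRNA group (x axis) and the PHF6 shRNA group (y axis), with all 17245 genes in grey and the 36 members in purple. Lcn2 and Ccl2 lie at the far upper right, and B2m, Stat3, Nfkbia and Psmb9 lie in the same quadrant near the edge of the grey cloud.

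The gap between duplicates exceeded the group difference in 34 of the 36 members, against 73.4% of all genes. The gap counted here is the larger of those in the 2 groups. The exceptions were Isg20 and Tnf. The median gap of the members was 0.18 log2 units in control and 0.13 in PHF6 shRNA, against 0.12 and 0.10 over all genes. In both groups the array numbered 2 was the higher for 12 members (33.3%, against 32.3% of all genes) and the lower for 8. A gap of at least 1 log2 unit in both groups was seen in 2 members, Lcn2 and Ccl2, and in 23 of all genes, 21 of them higher in the arrays numbered 2. By the smaller of the 2 same-direction gaps, Fabp7 ranked 2, Slc15a2 4, Olig1 6 and Tpx2 12, all higher in the arrays numbered 2. Npas4 ranked 7 and was lower in them. The astrocyte markers Slc1a3 and Sox9, described below, ranked 11 and 83. Under the 3 other scalings and as deposited the gaps of Lcn2 stayed between 2.48 and 2.77, those of Ccl2 between 1.54 and 2.21 and those of B2m between 0.64 and 0.91 log2 units. The labels repeat the numbers after the letters exp but do not say that same-numbered arrays were prepared together.

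Astrocyte markers were higher in the same arrays. Of 10 listed markers 8 were measured, and 7 of these were higher in the arrays numbered 2 in both groups. Their summed intensity was 797 and 1415 in control duplicates 1 and 2 and 1126 and 1735 in PHF6 shRNA duplicates 1 and 2. Slc1a3, the astrocytic glutamate transporter GLAST, read 254 and 622 against 278 and 665 units, and Sox9, an astrocyte and progenitor transcription factor, 121 and 201 against 139 and 232. Both arrays numbered 2 were above both numbered 1 in these genes, as in Lcn2, Ccl2, Stat3 and Nfkbia. Gfap, the astrocytic intermediate filament gene, was above background on the arrays numbered 2 alone, at 52.7 (control) and 46.3 (PHF6 shRNA). All 8 measured astrocyte markers had point estimates higher in PHF6 shRNA, against 47.7% of all genes. Those of Gfap (0.009 log2 units) and Gjb6 (0.005, below background on all arrays) were very small. For Slc1a2 and Aldoc, 2 of the 8, both PHF6 shRNA arrays were above both controls, against 16.0% of all genes. The part of astrocyte content in the values of Lcn2, Ccl2 and B2m was not tested, and more cells of a type and more RNA per cell cannot be told apart in such cultures.

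Microglial markers did not follow these genes. Of 13 measured, 8 were below background on all arrays, among them P2ry12, Aif1, Csf1r, Itgam and Trem2, and 3 (Cx3cr1, C1qb and Tmem119) were above it on all 4. Their summed intensity was 424 and 383 with control shRNA and 420 and 393 with PHF6 shRNA, lower in both arrays numbered 2. The background level was also lower in those arrays. With 8 of the 13 markers under it, the fall of this sum is no measure of microglial RNA. The oligodendrocyte list, 8 measured of 9, summed to 347 and 430 against 328 and 420. Olig1, a lineage transcription factor with the widest gap of that list, read 49.9 and 133 against 38.8 and 114. Of the 8 markers, 4 were higher in the arrays numbered 2 in both groups. Mog, below background on all arrays, was lower in both. All 5 measured endothelial markers were below background on every array, summing to between 122 and 129. The 7 fibroblast and pericyte markers summed to 319 and 306 with control shRNA and 334 and 321 with PHF6 shRNA. All 7 had point estimates higher in PHF6 shRNA, as the astrocyte markers did, those of Col1a1 (0.0008 log2 units) and Lum (0.0006) very small. In 3 of them, Dcn, Pdgfrb and Rgs5, both PHF6 shRNA arrays were above both controls, against 16.0% of all genes. Dcn and Pdgfrb were below background on all arrays. The 10 neuronal markers summed to 11579 and 11354 against 11028 and 10869, with 4 point estimates higher in PHF6 shRNA and 6 lower. In 4 of the 10, Tubb3, Syt1, Stmn2 and Slc17a6, both PHF6 shRNA arrays were below both controls, against 21.7% of all genes. The widest of these differences was that of Slc17a6, at -0.69 ± 0.11 log2 units, and none of the 10 passed the adjusted threshold.

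**Figure D4:**
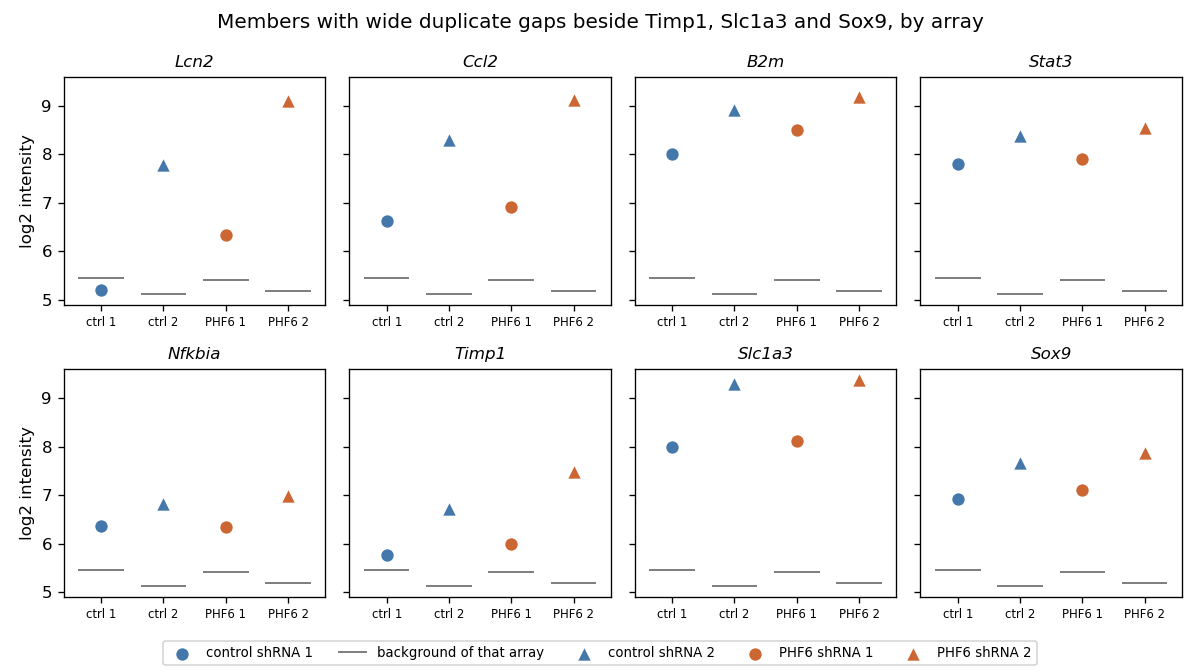
Log2 intensity (y axis) on the 4 arrays for Lcn2, Ccl2, B2m, Stat3 and Nfkbia beside the acute-phase gene Timp1 and the astrocyte markers Slc1a3 and Sox9. Grey ticks give the background level of each array. In all 8 genes the triangles (duplicates numbered 2) lie above the circles of the same group.

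Other genes of these pathways were read from lists of which 93 of 115 genes were measured. None of the 93 passed the adjusted threshold, and 4 passed at an unadjusted p under 0.05 in the limma fit, 2 higher and 2 lower, below the 10.8% of all genes. Their median difference was 0.02 log2 units, and 52 were higher and 41 lower.

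Among 18 measured genes of interferon signalling and sensing, 7 were higher and 11 lower, with a median of -0.03 log2 units. Trim25, a ubiquitin ligase that activates RIG-I, read 53.9 and 55.1 intensity units with control shRNA and 64.9 and 67.4 with PHF6 shRNA, a difference of 0.28 ± 0.08 (limma adjusted p = 0.34, unadjusted 0.017). Ifnar1, a subunit of the type I interferon receptor, read 273 and 303 against 243 and 240, a difference of -0.25 ± 0.09 (limma adjusted p = 0.42, unadjusted 0.037). Both genes separated the groups without passing over all genes. Adar, the RNA-editing enzyme that limits sensing of self RNA, differed by -0.22 ± 0.09 and Tbk1, the kinase that phosphorylates IRF3, by -0.20 ± 0.09. In Adar and Tbk1 too, both PHF6 shRNA arrays were below both controls. Of the 18 genes, 6 lay below in this way, against 21.7% of all genes, and 1 above, against 16.0%. Among the 6 are Zbp1 and Nlrc5, which were below background on all arrays.

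The 29 other interferon-stimulated effectors had a median of 0.02 log2 units, with 17 higher and 12 lower, and 19 of them were below background on all arrays. Rsad2, the antiviral enzyme viperin, stayed between 3.95 and 3.97 log2 units and Usp18, a protease that removes ISG15, between 3.87 and 3.97. By the rule of smallest p among genes above background on at least 2 arrays, Cmpk2, a mitochondrial nucleotide kinase, differed by -0.20 ± 0.08. Psme2, a proteasome activator subunit, differed by 0.22 ± 0.13, Tapbp, the peptide-loading factor tapasin, by 0.18 ± 0.10 and Psmb10, an immunoproteasome subunit, by 0.16 ± 0.09. All 4 missed the threshold (limma adjusted p from 0.48 to 0.68).

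Of 27 measured NF-kB and cytokine genes, 16 were higher and 11 lower, with a median of 0.01 log2 units. Cx3cl1, the neuronal chemokine fractalkine, read 151 and 133 intensity units with control shRNA and 211 and 168 with PHF6 shRNA, a difference of 0.41 ± 0.14 (limma adjusted p = 0.39, unadjusted 0.028). Both PHF6 shRNA arrays were above both control arrays. Rela, the p65 subunit of NF-kB, differed by 0.16 ± 0.08, Nfkbib, an NF-kB inhibitor, by -0.18 ± 0.10 and Nfkbiz, a nuclear regulator of NF-kB, by 0.14 ± 0.12. Ifnb1, which encodes interferon beta, was below background on all arrays, at 4.51 and 4.48 log2 units in control and 4.54 and 4.44 in PHF6 shRNA.

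Of 19 measured genes of the IL-6 family and acute phase, 12 were higher and 7 lower, with a median of 0.02 log2 units. Socs2, a feedback inhibitor of cytokine and growth hormone receptors, read 204 and 209 intensity units with control shRNA and 140 and 104 with PHF6 shRNA. The difference was -0.78 ± 0.15 log2 units, or 1.71-fold lower, without overlap and without passing over all genes (limma adjusted p = 0.24, unadjusted 0.0029). Timp1, a metalloproteinase inhibitor of the acute phase, read 54.3 and 104 against 63.2 and 178, and so had the duplicate pattern of Lcn2, with a group difference of 0.49 ± 0.54. Il6r, the IL-6 receptor, differed by -0.27 ± 0.12 and Pim1, a kinase induced by STAT3, by 0.15 ± 0.12.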

How the data were processed

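Neuronal RNA was hybridised to 4 whole-transcript Affymetrix arrays, 1-colour, per the labels' protocols, and the arrays were assigned to 2 groups of 2 by title. The authors deposited intensities per probe set from RMA (submitters' processing notes), which corrects background, applies quantile normalization and summarises probes. Its version is not given in the sources used here. Values between 8.57 and 6121 show a linear scale, and log2 was taken before testing. Precision is limited by the number of arrays, and scanner files were not used here.

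The platform annotation gives 1 symbol for 18644 of 29214 rows, several for 962 and none for 9608. Gene identifiers linked 18460 rows to RefSeq (GRCr8) symbols, and 17245 genes resulted. For 879 genes with more than 1 probe set the brightest was kept, while each member has 1. The comparison used limma 3.58.1 (R 4.3.3; lmFit, then eBayes, 2-sided) with neither filter nor covariate, a prior of 3.46 degrees of freedom, and a Benjamini-Hochberg adjusted p under 0.05 over 17245 genes. Differences are PHF6 shRNA minus control, with limma's SE. Lists were described by counts and medians.

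The members and lists were chosen with earlier results of these data known. Every member was named. From each list of other pathway genes, up to 4 above background on at least 2 arrays were named by smallest p, and the other context and marker genes were picked with their values in view. In 10 simulated data sets of 17245 independent genes, changes were planted only in genes above background on all 4 arrays. The procedure found 85.3% of 2-fold changes and 98.7% of 4-fold ones, and made 9.4 false calls on average. The simulated noise was independent between arrays, with no gap shared by same-numbered arrays, so these shares need not hold for the measured genes. In the measured data 31 genes differed by at least 1 log2 unit and 0 were called. Promoter motifs were searched on both strands. Alternatives were a block on the duplicate number, each array left out, 3 other scalings, 2 filters on dim genes, other priors, array weights, probe set means, an adjusted p under 0.10 and, chosen after seeing the data, a smaller receptor set for the background.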

Additional observations from a re-analysis of the deposited data

How the results depend on the processing

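The labels give the groups the same duplicate numbers without saying that the numbers pair the arrays. The gaps between duplicates correlated at 0.57 across the 17245 genes. With the duplicate number as a replicate block, 909 genes and 4 members passed (limma adjusted p). The members were Lcn2 (0.0030), Psmb9 (0.041), Ccl2 (0.047) and B2m (0.049), all higher in PHF6 shRNA. If the numbers do not pair the arrays, that fit understates the spread. If they do, the fit without a block counts the gap shared by same-numbered arrays as scatter and overstates the spread. In every other alternative no member passed. Without 1 array, 0 to 90 of all genes passed (2 without PHF6 shRNA duplicate 1, 90 without its duplicate 2), and the smallest adjusted p of a member was 0.32. The median difference of the members was 0.05 log2 units, and without 1 array it ran from 0.011 (without control duplicate 1) to 0.054. It was 0.11 among genes above background on at least 2 arrays, with either receptor set (15 or 19 members left), and 0.066 without the dimmest 25% of genes. The sign of Il6 turned after a further quantile normalization (-0.0021) and under cyclic loess (-0.0045), where Stat2 (0.014) and Irf9 (0.0044) also turned. With 206 receptor genes as background, 13 members were above it on all arrays and 16 on none. Leaving out 1 array unbalances the duplicate numbers, so a gap shared by both groups, as in Lcn2 and Ccl2, enters the difference directly. Of the 36 members, 23 changed sign when at least 1 array was left out. Their differences without 1 array ranged as follows in log2 units, Dhx58 -0.062 to 0.047, Isg15 -0.25 to 0.060, Mx1 -0.036 to 0.016, B2m -0.070 to 0.84, Cxcl10 -0.067 to 0.19, Cxcl9 -0.15 to 0.13, Ccl2 -0.56 to 1.65, Nfkbia -0.25 to 0.39, Nfkb1 -0.10 to 0.16, Lcn2 -0.17 to 2.60, Stat3 -0.19 to 0.45, Irf1 -0.18 to 0.12, Irf7 -0.016 to 0.053, Irf9 -0.11 to 0.073, Ifit2 -0.068 to 0.18, Bst2 -0.017 to 0.21, Il6 -0.12 to 0.13, Irf3 -0.040 to 0.093, Stat2 -0.10 to 0.015, Ifih1 -0.0052 to 0.19, Ifit3 -0.053 to 0.0051, Ccl5 -0.20 to 0.10 and Cxcl1 -0.010 to 0.24.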
